A study of Danio rerio with 11 samples.

Results

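Transcript levels were followed for 35 zebrafish genes of the transport machinery and gate of the cilium, out of 29387 genes with values. The genes came from a list of 37 symbols, picked for their known roles, and were matched by symbol to Ensembl gene identifiers. The 2 symbols ift43 and ift122 had no identifier and were left out, and ift70 was matched through its RefSeq synonym ift70a. All 35 genes passed the filter on low counts in each of the 5 tests used here.

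The outer segment of a rod or cone is a modified sensory cilium, joined to the cell body by a thin connecting cilium. Proteins for the outer segment are carried along this bridge by trains of intraflagellar transport (IFT) complexes. The IFT-B complex travels outward with kinesin-2 motors, IFT-A serves return transport and membrane protein entry, and the BBSome is a cargo adaptor that rides on the trains. The transition zone at the cilium base, to which the connecting cilium corresponds, acts as a gate, and human mutations in genes of each group cause retinal degeneration.

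Polyadenylated RNA was sequenced in 11 libraries. The mutant group carried a mutation of the eMIC domain of srrm3, the part of this splicing regulator that promotes inclusion of neuronal microexons, and was compared with WT fish of the same families and stage. Eyes of each genotype gave 1 library at 48, 60 and 72 hours post fertilization (hpf), from 20 to 60 pooled eyes with fish described as genotyped by fin clip, and 1 library at 5 days post fertilization (dpf), from 20 pooled eyes. WT fish of the AB strain gave 1 library of pooled heads at 24 hpf, and WT adults gave 2 retina libraries, for which pools of 5 retinae are described. The labels give no adult age, and each genotype at a larval stage is a single pool, so it has no replicate of its own. It is not stated whether the adult replicates are separate animals, and they enter only the adult comparison. All p-values here measure only the spread between these libraries, which may be technical. A stranded protocol and another RNA kit are given for the adult and 5 dpf libraries than for the eyes of 48 to 72 hpf, so between those sets age and library preparation cannot be told apart.

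Libraries held 37724575 to 92560511 counts, of which the 35 genes took 0.0532% to 0.116%. The gene-level srrm3 value ranged from 1.09 to 4.15 cRPKM in the larval eyes and does not check a mutation within the gene. Levels are given as cRPKM, the deposited reads per length and depth, which allow genes of different length to be compared. Summed cone markers were at 25.9 and 19.1 cRPKM in WT and mutant eyes of 48 hpf and at 29128 and 4544 in those of 5 dpf, and rod markers at 40.9 and 32.3, then 8132 and 733. Lens markers summed to 2327 to 31626 in the larval eyes and to 3.59 and 2.13 in the adult retinae, so the eye and retina labels are borne out by lens and photoreceptor genes. The 5 dpf mutant library also held 4914 cRPKM of 10 digestive enzyme transcripts of the exocrine pancreas, against 30.2 in its WT partner. Skeletal muscle markers were higher in the mutant library at 48 hpf, with 6840 against 3597, at 60 hpf, with 3286 against 1134, and at 5 dpf, with 3390 against 1330. Adult replicate 1 held 1061 cRPKM of muscle and 3590 of skin markers, against 87.2 and 213 in replicate 2. In bulk RNA, fewer cells of a type and less RNA per cell cannot be told apart. Whether the authors counted by strand is not given, so reads of overlapping or antisense genes cannot be separated, and how reads shared by the paralogs tulp1a and tulp1b were assigned is not given either.

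Most of the 35 genes varied less over the libraries than the median of all genes, and 9 varied more: bbs1, bbs4, bbs5, bbs9, arl6, tulp1a, tulp1b, kif17 and cep290. The motor subunit kif3a had the highest mean level over the 11 libraries, 32.1 cRPKM, and the homodimeric kinesin-2 motor kif17 the lowest, 0.27. Median variation over libraries, as SD relative to the mean, was 26.6% for the 35 genes and 43.1% for the 15131 genes that reached 5 cRPKM in some library. The IFT-A subunit ift140 varied least, by 10.2%, between 3.22 and 4.49 cRPKM. The photoreceptor protein gene tulp1b varied most, by 96.8%, between 0.15 and 30.3 cRPKM. The head library held the lowest level of 15 of the 35 genes, and the share of all genes lowest there was not computed. Adult replicate 2 held the highest level of 12, against 18.1% of the 15131 genes. The 35 genes were not filtered by level.

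**Figure D1:**
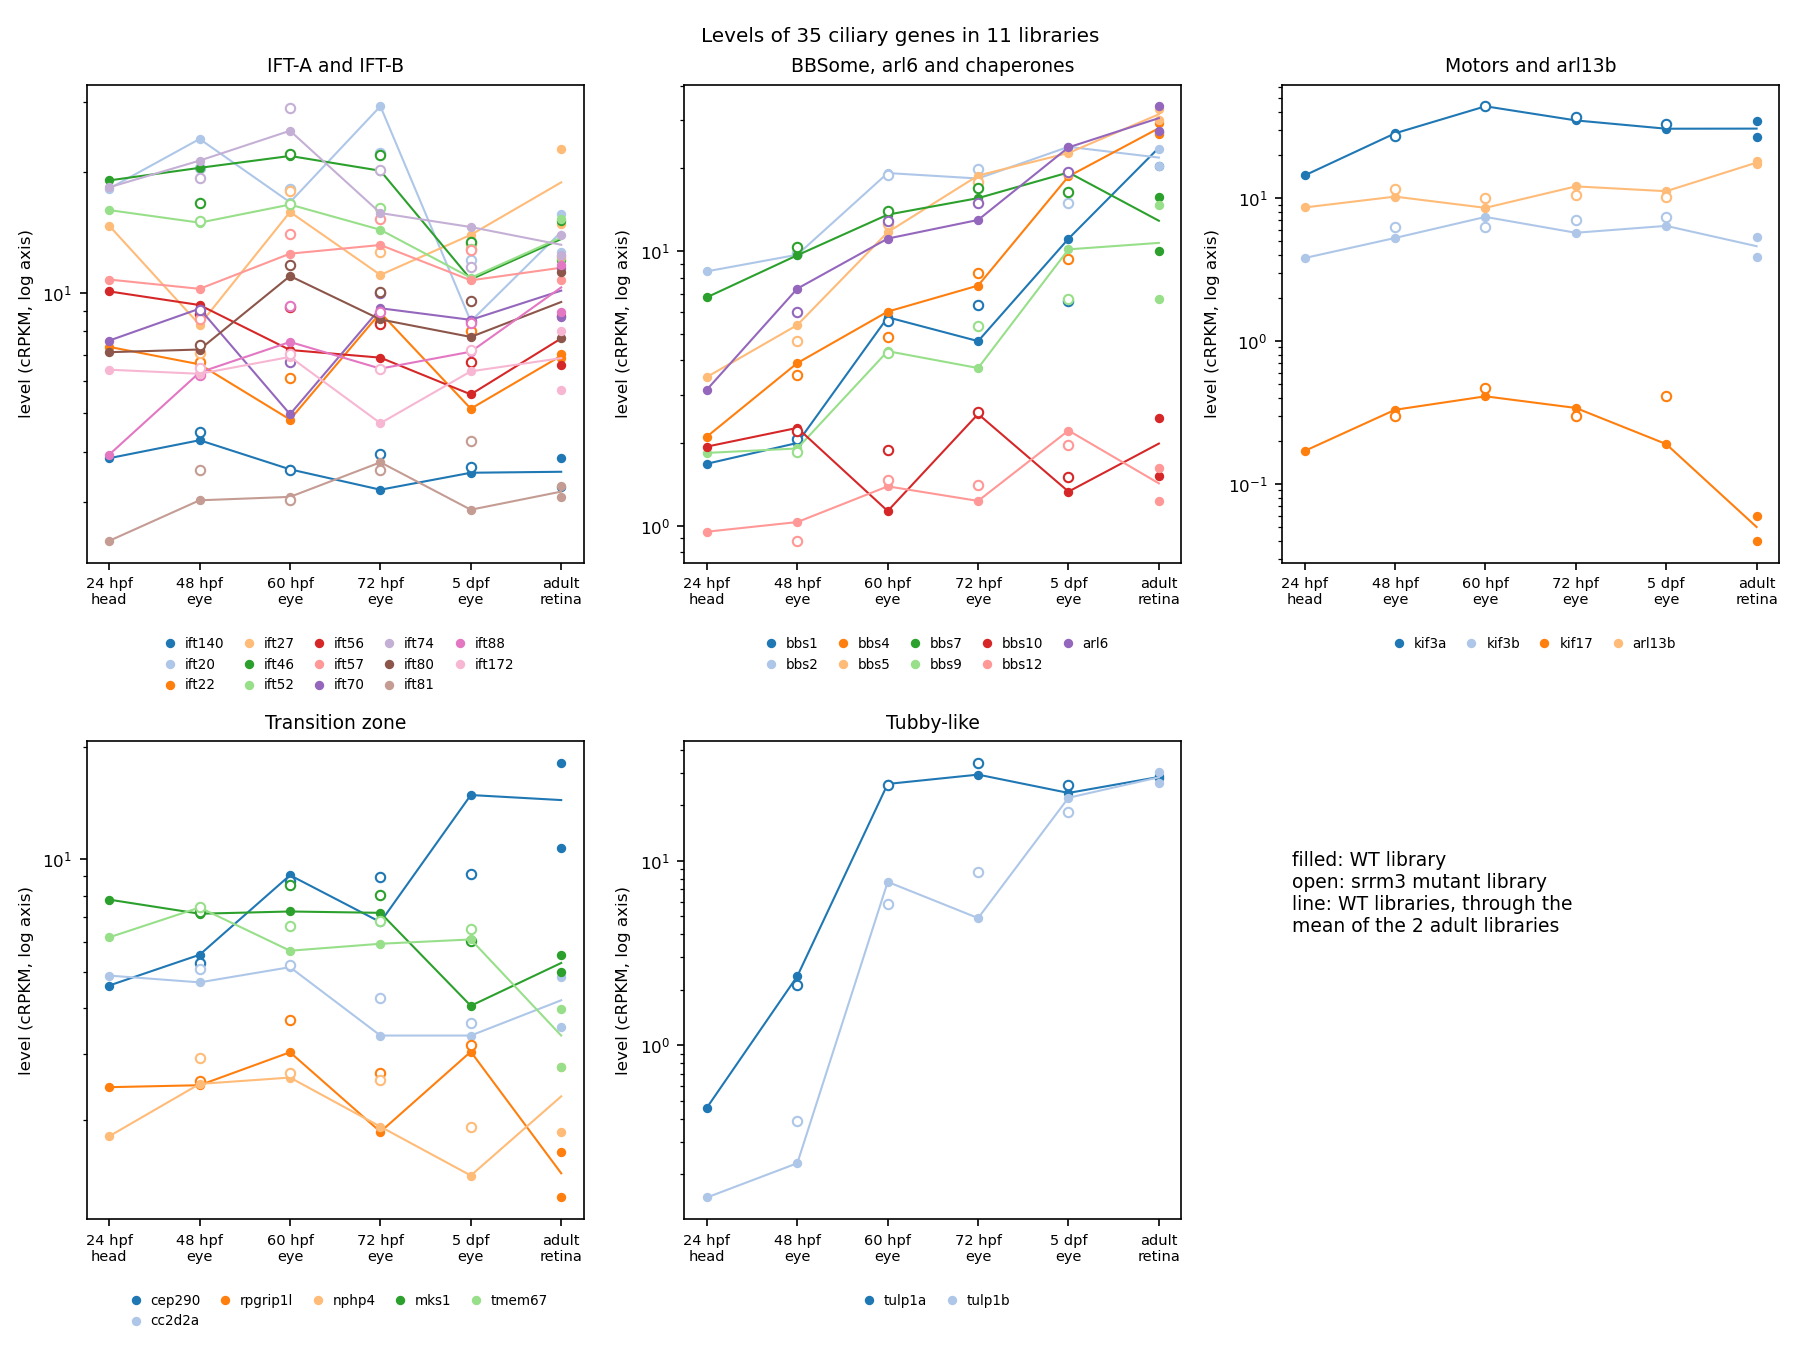
Level of each of the 35 genes (cRPKM, log axis) by stage, in panels by role, with filled points for WT libraries, open points for mutant libraries and a line through the WT libraries and the adult mean. The IFT genes vary without a common course, most BBSome genes climb from the head to the adult retina, and tulp1a and tulp1b climb from under 3 cRPKM at 48 hpf to over 18 at 5 dpf.

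The first comparison asked how the genes changed with age in the larval eye. From 48 to 72 hpf, over 6 libraries of 1 set, bbs5 rose, at an adjusted p of 0.0333 (edgeR's quasi-likelihood test, Benjamini-Hochberg over 21150 genes). It was the only 1 of 35 called higher and 0 were called lower, against 1.60% and 1.62% of all genes, so the share called lies near that of all genes. The slope was 3.06 ± 0.41 (SE) on the log2 scale per doubling of age. The product of bbs5 is a BBSome subunit that binds phosphoinositide lipids. Its level was 3.48 cRPKM in the head, 5.38, 11.7, 18.9 and 22.8 in the WT eyes, 4.72, 12.6, 17.9 and 19.3 in the mutant eyes, and 30.2 and 32.9 in the adult retinae, with the WT and mutant values each ordered from 48 hpf to 5 dpf, as in all such lists here. Both 72 hpf eyes were above both 60 hpf eyes, which were above both 48 hpf eyes.

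Several further genes had slopes of the same sign that missed the threshold. The small GTPase arl6, which recruits the BBSome to membranes, had a slope of 1.72 ± 0.44 (adjusted p = 0.0762, edgeR's quasi-likelihood test), and its level was 3.13 cRPKM in the head, 7.3, 11.1, 12.99 and 23.9 in the WT eyes, 5.98, 12.9, 15.02 and 19.4 in the mutant eyes, and 27.3 and 33.7 in the adult retinae. The BBSome subunit bbs4, known to bind the centriolar protein pericentriolar material 1, had a slope of 1.71 ± 0.35 (adjusted p = 0.0551, edgeR's quasi-likelihood test), and its level was 2.11 cRPKM in the head, 3.91, 6.02, 7.49 and 18.7 in the WT eyes, 3.53, 4.88, 8.29 and 9.35 in the mutant eyes, and 26.8 and 29.4 in the adult retinae. In both, every eye at 60 hpf and later stood above both eyes at 48 hpf, and the adult retinae above all larval eyes.

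The tubby-like genes had the steepest climbs. The human counterpart of tulp1a and tulp1b is a photoreceptor protein needed for transport of rhodopsin to the outer segment. For tulp1a the level was 0.46 cRPKM in the head, 2.37, 26.1, 29.3 and 23.3 in the WT eyes, 2.12, 25.8, 33.9 and 25.7 in the mutant eyes, and 28.2 and 28.7 in the adult retinae. The paralog tulp1b stood at 0.15 cRPKM in the head, 0.23, 7.68, 4.89 and 21.9 in the WT eyes, 0.39, 5.83, 8.74 and 18.4 in the mutant eyes, and 26.3 and 30.3 in the adult retinae. From 48 to 60 hpf, tulp1a was 10.996-fold and tulp1b 33.4-fold higher in WT eyes, and 12.2-fold and 14.9-fold higher in mutant eyes. After 60 hpf tulp1a stayed between 23.3 and 33.9 cRPKM, while tulp1b was higher at 5 dpf than at 72 hpf in both genotypes. With slopes of 6.52 ± 1.66 and 7.46 ± 2.58 over 48 to 72 hpf, the adjusted p was 0.0766 for tulp1a and 0.133 for tulp1b (edgeR's quasi-likelihood test). Rod and cone marker sums climbed over the same interval, and their part in these values was not tested.

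The lowest p of negative slopes from 48 to 72 hpf belonged to ift140, cc2d2a, ift56 and tmem67, none of which passed the test. The slope of ift140 was -0.66 ± 0.30 (adjusted p = 0.218, edgeR's quasi-likelihood test), and its level was 3.86 cRPKM in the head, 4.28, 3.62, 3.22 and 3.55 in the WT eyes, 4.49, 3.6, 3.96 and 3.67 in the mutant eyes, and 3.28 and 3.86 in the adult retinae. The transition zone scaffold cc2d2a, a gene of human Joubert and Meckel syndromes, had levels of 4.88 cRPKM in the head, 4.68, 5.14, 3.37 and 3.37 in the WT eyes, 5.09, 5.2, 4.24 and 3.64 in the mutant eyes, and 3.55 and 4.83 in the adult retinae. The transition zone membrane protein gene tmem67 had levels of 6.18 cRPKM in the head, 7.43, 5.69, 5.94 and 6.1 in the WT eyes, 7.45, 6.61, 6.85 and 6.49 in the mutant eyes, and 2.77 and 3.97 in the adult retinae. For ift140 and tmem67, all 6 eye libraries after 48 hpf lay below both 48 hpf libraries, whereas cc2d2a was lower at 72 hpf but not at 60 hpf.

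The count of calls in this interval moved with the libraries and the tool. The slope is a straight line in log2 hours through 48, 60 and 72 hpf, so a stage lying off that line adds to the spread. Where a pair was left out, the spread came only from how the genotype difference varied between the stages kept. Calls with and without a pair therefore rest on different kinds of spread. DESeq2 called 9 genes higher, adding bbs1, bbs2, bbs4, bbs7, bbs9, arl6, tulp1a and tulp1b, and limma on log2(cRPKM + 1) called 4, adding bbs4, arl6 and tulp1a. Without the 60 hpf pair 12 were called higher and 4 lower, without the 72 hpf pair 18 and 1, and with WT libraries alone 0 and 0. Without the 48 hpf pair bbs5 was no longer called, 1 gene (ift70) was higher, and ift27, ift74, cc2d2a and rpgrip1l were lower. The calls over all genes moved as well. DESeq2 called 2034 higher and 1501 lower of 21150, and limma 1225 and 441. The counts were 5450 and 5066 of 20997 without the 60 hpf pair, and 4840 and 4197 of 20816 without the 72 hpf pair. They were 2 and 0 of 20485 with WT libraries alone, and 1868 and 1602 of 20773 without the 48 hpf pair. By a direct count of levels, 16 of the 35 genes (45.7%) had all 6 eye libraries after 48 hpf above both 48 hpf libraries, against 22.3% of 15131 genes. The 16 were bbs1, bbs2, bbs4, bbs5, bbs7, bbs9, bbs12, arl6, tulp1a, tulp1b, cep290, kif3a, ift27, ift57, ift80 and ift88, and the reverse held for 2 genes, against 19.3%. The 15131 genes reached 5 cRPKM in some library. That filter was not applied to the 35, and bbs12 and ift140 did not reach it.

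Over the wider span from 48 hpf to 5 dpf most BBSome genes rose and a few IFT-B and transition zone genes fell. In the 8 larval eye libraries 8 of 35 genes (22.9%) were called higher and 5 (14.3%) lower, against 19.0% and 18.2% of all 21829 genes. These shares are near those of all genes, and the calls were unevenly placed among the roles. Among the BBSome, its chaperones and arl6, 7 of 9 rose and 0 fell, with a median slope of 1.15, against -0.01 over all genes. Among IFT-B genes 0 of 13 rose and 3 fell, with a median slope of -0.00. In the transition zone group 0 of 6 rose and 2 fell, and of the 2 tubby-like genes tulp1b rose. None of the 4 motor and arl13b genes nor ift140 was called. Since the roles were grouped with earlier results known, these counts are a description.

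Among BBSome members bbs9 had the highest slope, 1.42 ± 0.30 (adjusted p = 0.00837, edgeR's quasi-likelihood test). Its level was 1.84 cRPKM in the head, 1.91, 4.32, 3.75 and 10.2 in the WT eyes, 1.85, 4.26, 5.34 and 6.71 in the mutant eyes, and 6.72 and 14.7 in the adult retinae. The slope of bbs4 was 1.39 ± 0.23 (adjusted p = 0.0033, edgeR's quasi-likelihood test) and that of bbs5 was 1.32 ± 0.35 (adjusted p = 0.0197, same test). The WT eye at 5 dpf had the highest larval level of all 3 genes.

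The subunit bbs1, whose human counterpart carries the most frequent mutation of Bardet-Biedl syndrome, had a slope of 1.28 ± 0.38 (adjusted p = 0.0295, edgeR's quasi-likelihood test). Its level was 1.68 cRPKM in the head, 2.0, 5.74, 4.7 and 11.1 in the WT eyes, 2.07, 5.57, 6.35 and 6.59 in the mutant eyes, and 20.5 and 27.1 in the adult retinae. From 48 hpf to 5 dpf it was 5.55-fold higher in WT and 3.18-fold higher in mutant eyes. The slope of arl6 was 1.15 ± 0.21 (adjusted p = 0.00491, same test), and its fold from 48 hpf to 5 dpf was 3.27 in WT and 3.24 in mutant eyes.

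The chaperonin-like gene bbs12, which acts in BBSome assembly, had a slope of 0.74 ± 0.21 (adjusted p = 0.0275, edgeR's quasi-likelihood test) at low levels of 0.95 cRPKM in the head, 1.03, 1.39, 1.23 and 2.22 in the WT eyes, 0.88, 1.46, 1.41 and 1.96 in the mutant eyes, and 1.23 and 1.62 in the adult retinae. The BBSome core subunit bbs7 had a slope of 0.55 ± 0.18 (adjusted p = 0.0424, same test) and levels of 6.79 cRPKM in the head, 9.66, 13.6, 15.6 and 19.4 in the WT eyes, 10.4, 14.01, 16.95 and 16.5 in the mutant eyes, and 10.0 and 15.8 in the adult retinae. Unlike the other risers, these genes did not reach their highest level in the adult retina: the 5 dpf WT eye was highest for both. For tulp1b the slope was 2.98 ± 0.93 (adjusted p = 0.0371, same test).

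The BBSome members not called were bbs2 and the chaperonin-like bbs10. The core subunit bbs2 stood at 8.44 cRPKM in the head, 9.7, 19.3, 18.4 and 23.99 in the WT eyes, 9.88, 18.9, 19.97 and 15.02 in the mutant eyes, and 20.3 and 23.5 in the adult retinae. Its later eye libraries all exceeded both 48 hpf eyes, but the mutant level was lower at 5 dpf than at 72 hpf, and the slope of 0.52 had an adjusted p of 0.212 (edgeR's quasi-likelihood test). The level of bbs10 lay between 1.13 and 2.60 cRPKM and its slope was -0.43.

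The 3 IFT-B genes that fell were ift20, ift46 and ift56. The product of ift20 is the IFT-B subunit that also sits at the Golgi, and its level was 18.2 cRPKM in the head, 24.2, 16.8, 29.2 and 8.48 in the WT eyes, 20.5, 18.1, 22.3 and 12.1 in the mutant eyes, and 15.7 and 12.6 in the adult retinae. The slope was -0.84 ± 0.28 (adjusted p = 0.0433, edgeR's quasi-likelihood test), and the lowest values were those of 5 dpf, in the other library set. The subunit gene ift46, known for carrying outer dynein arms in algae, stood at 19.1 cRPKM in the head, 20.5, 21.9, 20.2 and 10.8 in the WT eyes, 16.7, 22.2, 22.02 and 13.4 in the mutant eyes, and 12.1 and 15.1 in the adult retinae, with a slope of -0.61 ± 0.20 (adjusted p = 0.0469, same test). The subunit gene ift56 stood at 10.1 cRPKM in the head, 9.31, 7.19, 6.88 and 5.57 in the WT eyes, 8.86, 9.2, 8.34 and 6.71 in the mutant eyes, and 6.61 and 8.76 in the adult retinae, with a slope of -0.46 ± 0.14 (adjusted p = 0.0310, same test). In all 3 genes the WT eye at 5 dpf had the lowest level of any library.

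In the transition zone nphp4 and mks1 fell. The scaffold gene nphp4, mutated in human nephronophthisis, stood at 1.81 cRPKM in the head, 2.5, 2.6, 1.92 and 1.42 in the WT eyes, 2.93, 2.68, 2.56 and 1.92 in the mutant eyes, and 1.86 and 2.77 in the adult retinae, with a slope of -0.61 ± 0.16 (adjusted p = 0.0179, edgeR's quasi-likelihood test). The Meckel syndrome gene mks1 stood at 7.8 cRPKM in the head, 7.15, 7.25, 7.19 and 4.05 in the WT eyes, 7.23, 8.52, 8.04 and 6.05 in the mutant eyes, and 5.0 and 5.55 in the adult retinae, with a slope of -0.50 ± 0.17 (adjusted p = 0.0461, same test). Both were again lowest in the 5 dpf WT eye. The large transition zone protein gene cep290, mutated in Leber congenital amaurosis, went the other way without a call, with a slope of 0.72 and levels of 4.59 cRPKM in the head, 5.55, 9.07, 6.79 and 14.9 in the WT eyes, 5.26, 8.73, 8.98 and 9.14 in the mutant eyes, and 10.7 and 18.2 in the adult retinae.

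Calls of this span depended on the 5 dpf libraries. Without the 5 dpf mutant library 7 genes were called higher and 0 lower: bbs1, bbs4, bbs5, bbs7, bbs9 and arl6 remained, cep290 was added, and bbs12, tulp1b and all 5 that fell were lost. With WT libraries alone 3 genes were called (bbs4, bbs9 and arl6), without the 48 hpf pair 3 higher and 2 lower, without the 60 hpf pair 8 and 1, without the 72 hpf pair 5 and 2, and without the 5 dpf pair 1 and 0. Over all genes 2357 were called higher and 1872 lower of 21321 without the 5 dpf mutant library. With WT libraries alone the counts were 1161 and 315 of 20927. They were 3238 and 2575 of 21548 without the 48 hpf pair, and 4109 and 3801 of 21771 without the 60 hpf pair. They were 3582 and 3444 of 21706 without the 72 hpf pair, and 338 and 343 of 21150 without the 5 dpf pair. Age and library set cannot be told apart for the 5 dpf step.

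**Figure D2:**
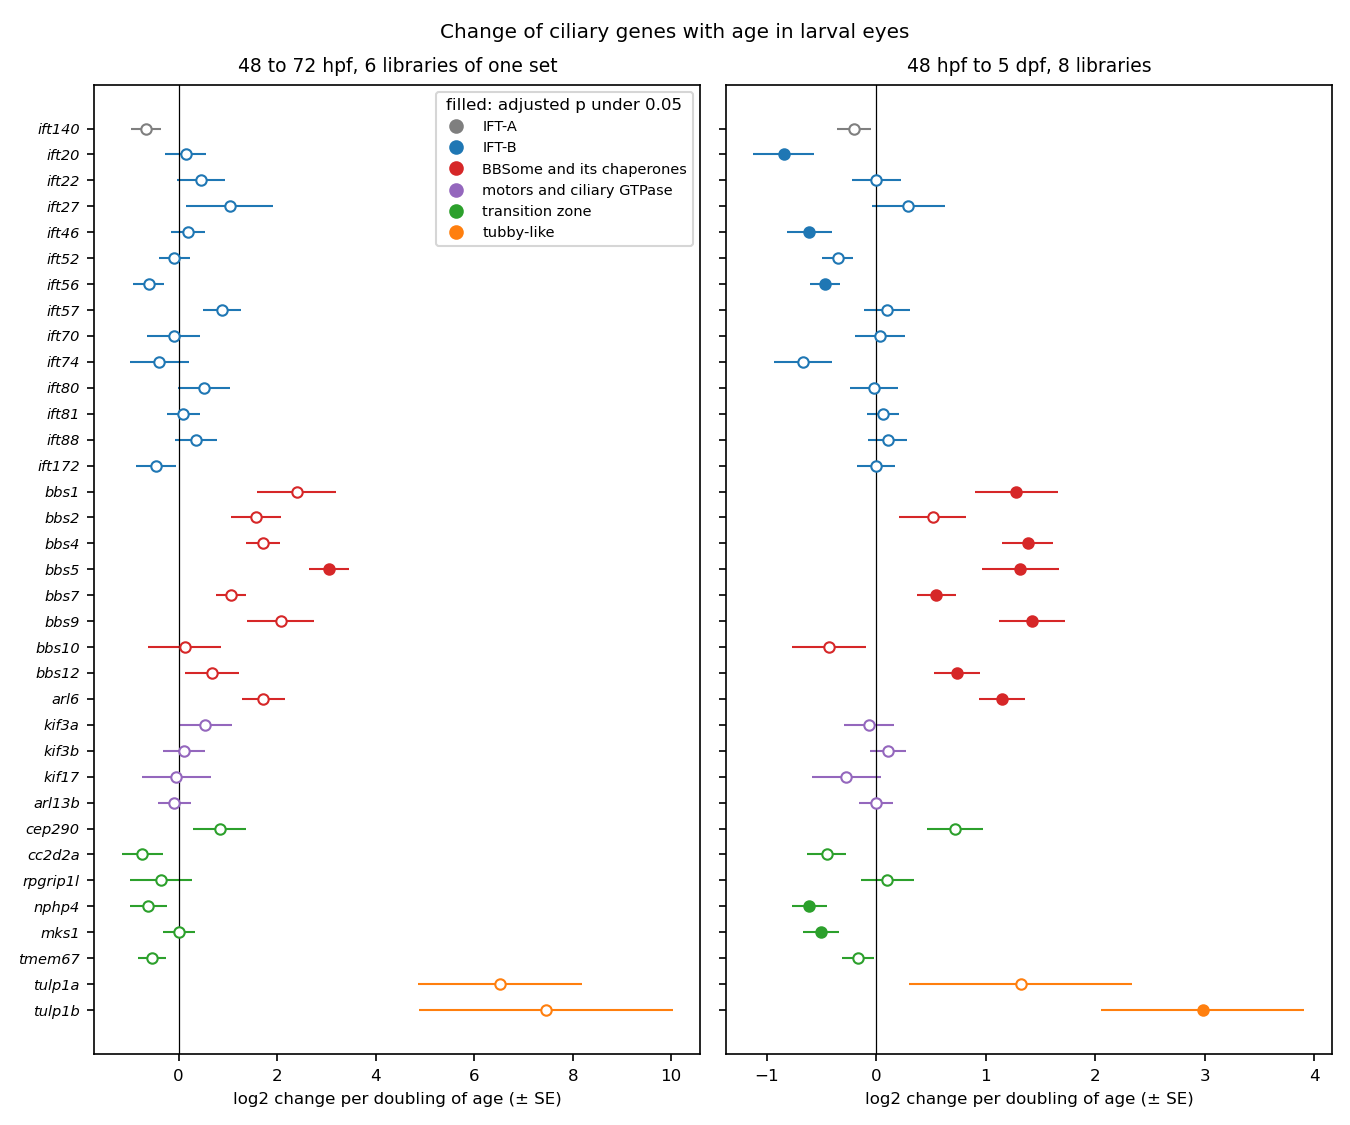
Fitted log2 change per doubling of age (± SE) for each of the 35 genes, from 48 to 72 hpf in 6 libraries (left) and from 48 hpf to 5 dpf in 8 libraries (right), coloured by role and filled where the adjusted p of edgeR's test was under 0.05. The BBSome genes other than bbs10 lie right of zero in both panels, the IFT-B genes lie around zero, and 8 genes on the right and 5 on the left of zero are filled in the right panel.

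The second comparison asked whether the genes differed between srrm3 mutant and WT eyes. Across the 4 stages 0 of 35 genes were called by edgeR's quasi-likelihood test, against 1 of 21829 genes (0.00458%). With so few calls in all, the 0 of 35 says little about these genes. Of the 35, 0 had an unadjusted p under 0.05. Over all genes 1074 of 21829 had such a p. DESeq2 also called 0 of the 35, and over all 21829 genes it called 8 higher and 51 lower. With limma at either pseudocount 0 of all 21829 genes were called, so its 0 of 35 says nothing about these genes. Of the differences fitted by edgeR 11 were positive and 24 negative, between -0.48 and 0.13 on the log2 scale. On log2(cRPKM + 1) 26 were positive and 9 negative, and the median of all genes on that scale was 0.09, against -0.01 in the count fit, so the balance of signs turned with the scaling.

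The lowest p among negative differences belonged to BBSome genes and arl6. They were -0.48 ± 0.23 for bbs4, -0.25 ± 0.12 for bbs5, -0.28 ± 0.18 for bbs2 and -0.19 ± 0.15 for arl6, each with an adjusted p of 0.881 (edgeR's quasi-likelihood test). All 6 BBSome subunits among the 35 genes, bbs1, bbs2, bbs4, bbs5, bbs7 and bbs9, had negative differences. The lowest p among positive ones belonged to nphp4 (0.13 ± 0.12), mks1 (0.10 ± 0.11), ift88 (0.10 ± 0.12) and ift22 (0.09 ± 0.14). The IFT-B core subunit gene ift88, required for cilia and photoreceptor outer segments, stood at 3.94 cRPKM in the head, 6.32, 7.53, 6.46 and 7.12 in the WT eyes, 6.24, 9.27, 8.92 and 8.4 in the mutant eyes, and 8.92 and 11.7 in the adult retinae. The small GTPase-like IFT-B gene ift22 stood at 7.32 cRPKM in the head, 6.62, 4.82, 8.91 and 5.13 in the WT eyes, 6.72, 6.13, 8.44 and 8.0 in the mutant eyes, and 7.03 and 6.88 in the adult retinae.

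Stage by stage, each mutant library was set against its WT partner without a test. By log2 ratios with a pseudocount of 1, in none of the 4 pairs did any of the 35 genes differ 2-fold at 5 cRPKM or more in the higher library. Without the pseudocount bbs4 was at the mark at 5 dpf, with a plain ratio of 0.4995. By this rule 0.496% of all genes were higher and 0.180% lower in the 48 hpf mutant. The shares were 1.31% higher and 0.277% lower in the 60 hpf mutant, 0.247% and 0.315% in the 72 hpf mutant, and 5.25% and 2.52% in the 5 dpf mutant. The median log2 ratio of the 35 genes was -0.01, 0.04, 0.18 and 0.09 at the 4 stages, against 0.05, 0.07, 0.06 and 0.22 for all genes. A higher mutant value in 4 of 4 pairs was found for 8 genes: ift52, ift80, ift172, cc2d2a, rpgrip1l, nphp4, mks1 and tmem67. A lower one in 4 of 4 was found for 0 genes. Among 15131 genes with 5 cRPKM or more in a library, 17% were higher and 2.06% lower in the mutant in 4 of 4 pairs. The 35 were not filtered in this way, and rpgrip1l and nphp4 stayed below 5 cRPKM.

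At 5 dpf the BBSome subunits stood below their WT values and most IFT-B genes above theirs. The mutant level of bbs4 was 9.35 cRPKM against 18.7 in WT, a log2 ratio of -0.93 with a pseudocount of 1. The ratio was -0.67 for bbs1, -0.64 for bbs2, -0.53 for bbs9, -0.23 for bbs5 and -0.22 for bbs7, and -0.65 for cep290. All 6 subunits lay below zero, with a median of -0.59, and arl6 followed at -0.29. Of the 13 IFT-B genes 10 lay above zero, with a median of 0.23 that hardly differed from the 0.22 of all genes. Centred on the median of all genes, bbs4 passed the 2-fold mark. At 72 hpf 5 of the same 6 subunits were above zero, with a median of 0.12.

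**Figure D3:**
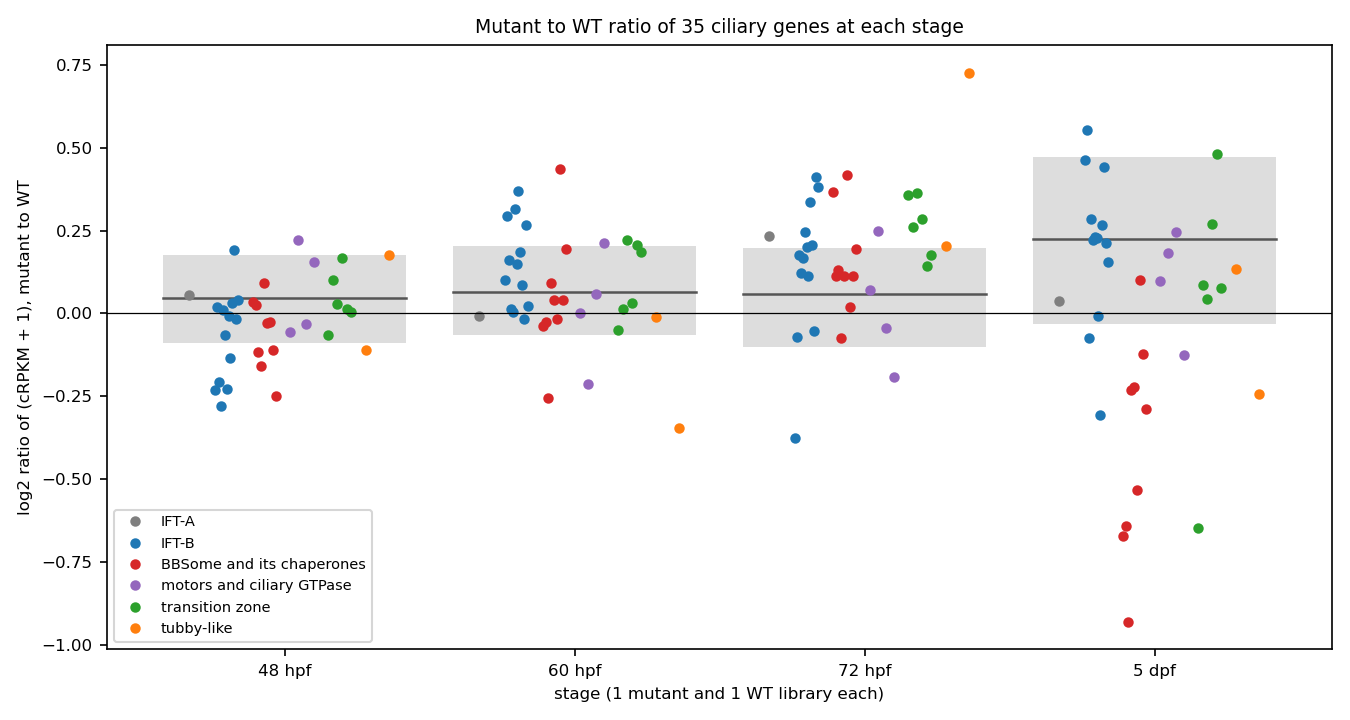
Log2 ratio of mutant to WT (cRPKM + 1) for the 35 genes at each of 4 stages, 1 point per gene coloured by role, with the median (line) and middle range from the 25th to the 75th percentile (grey box) of all genes that reach 5 cRPKM. No gene lies below -0.5 at 48, 60 or 72 hpf, tulp1b at 72 hpf is the highest point at 0.73, and at 5 dpf bbs1, bbs2, bbs4, bbs9 and cep290 lie below -0.5.

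Whether the genotype difference changed with age was tested with a genotype by age term. It called 0 of 35 genes, against 0.353% of all genes by edgeR's quasi-likelihood test, and 5 of the 35 had an unadjusted p under 0.05: bbs1, bbs2, bbs4, arl13b and cep290, all with a negative term. Over all genes 2329 of 21829 had an unadjusted p under 0.05. DESeq2 called 0 of the 35 as well, and over all 21829 genes it called 124 higher and 167 lower. With limma at either pseudocount 0 of all 21829 genes were called, so its 0 of 35 says nothing about these genes. The term was -0.77 ± 0.25 per doubling of age for bbs2 (adjusted p = 0.243), -0.87 ± 0.31 for bbs4 (adjusted p = 0.302), -0.85 ± 0.33 for bbs1 (adjusted p = 0.365) and -0.72 ± 0.32 for cep290 (adjusted p = 0.458), all from edgeR. The lowest p of positive terms belonged to kif17 (0.68 ± 0.52), ift20 (0.29 ± 0.26), ift46 (0.20 ± 0.23) and mks1 (0.18 ± 0.25). All 9 genes of the BBSome group had negative terms, with a median of -0.48, against -0.03 for the 13 IFT-B genes and -0.01 for all genes. The balance of signs turned with the scaling here too. In the count fit 7 of the 35 terms were positive and 28 negative. On log2(cRPKM + 1) 20 were positive and 15 negative, and the median of all genes was 0.15.

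This test rested on single pairs. Without the 72 hpf pair bbs1, bbs2, bbs4 and cep290 were called lower, with terms of -0.88, -0.80, -0.90 and -0.75 and adjusted p of 0.0451, 0.0244, 0.0296 and 0.0260 (edgeR's quasi-likelihood test). In that fit 431 genes were called higher and 565 lower of 21706. Without the 5 dpf pair 0 of all 21150 genes were called, so the 0 of 35 called there says nothing about these genes. The terms of bbs1, bbs2, bbs4 and cep290 in that fit were 0.63, 0.14, 0.47 and 0.79. The lower rod and cone markers of the 5 dpf mutant, with log2 mutant to WT ratios of -3.47 and -2.68, and the pancreatic transcripts of that mutant library came with these values, and their part in them was not tested.

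The balance between the complexes restates, as sums, the levels of the same genes in the same libraries, so it adds no separate evidence. The 6 BBSome subunits summed to 24.3 cRPKM in the head, 32.6, 60.6, 68.8 and 106 in the WT eyes, 32.4, 60.1, 74.8 and 73.4 in the mutant eyes, and 114 and 143 in the adult retinae. The 13 IFT-B genes summed to 142 in the head, 147, 155, 152 and 113 in the WT eyes, 136, 171, 164 and 128 in the mutant eyes, and 126 and 154 in the adult retinae. The ratio of the sums was therefore 0.22 in WT and 0.24 in mutant eyes of 48 hpf. At 60 hpf the ratio was 0.39 in WT and 0.35 in mutant eyes, and at 72 hpf 0.45 in both. At 5 dpf it was 0.94 in WT and 0.57 in mutant eyes, and in the adult retinae it was 0.91 and 0.93. The WT eye at 5 dpf thus lay just above both adult values, and the mutant eye between the 72 hpf eyes and the adult retinae. The step from 72 hpf to 5 dpf also falls at the change of library set, and the IFT-B sum was lowest of all libraries in the 5 dpf WT eye. As each value comes from 1 library, no test was made. With the ratio, log2 mutant to WT values of the rod markers were -0.34, -0.54, 0.03 and -3.47 and of the cone markers -0.44, -0.64, -0.01 and -2.68 from 48 hpf to 5 dpf.

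**Figure D4:**
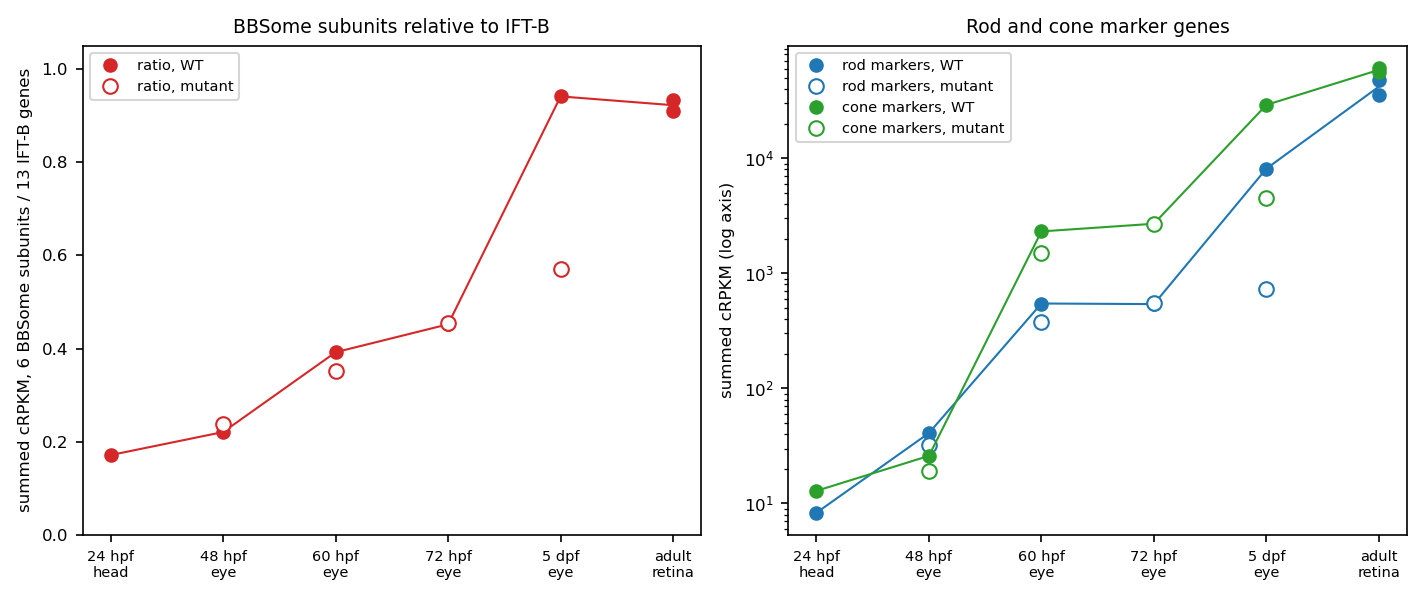
Ratio of the summed cRPKM of 6 BBSome subunits to that of 13 IFT-B genes (left) and summed cRPKM of rod and cone markers on a log axis (right), by stage, with filled points for WT and open points for mutant libraries and a line through WT. The ratio climbs from 0.17 in the head to 0.94 at 5 dpf in WT eyes, while the 5 dpf mutant eye is at 0.57.

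The adult comparison asked how the mature retina differed from the 5 dpf eye, both from the stranded set. Tissue and stage differ together here, as the adult samples are retinae and the 5 dpf samples eyes. Lens markers summed to 31626 and 20934 cRPKM in WT and mutant eyes of 5 dpf, against 3.59 and 2.13 in the adult retinae. Pigment epithelium markers summed to 723 and 756, against 27.2 and 35.3. The part of these tissues in the changes was not tested. In the fit over 11 libraries 11 of 35 genes (31.4%) were called higher and 1 (2.86%) lower, against 17.5% and 16.6% of 23235 genes, or 34.1% in either direction. The 11 were bbs1, bbs4, bbs5 and arl6, the IFT-B genes ift20, ift52, ift56 and ift88, arl13b, nphp4 and tulp1a, and kif17 was lower. The median change of the 35 was 0.63, against 0.06 for all genes. On log2(cRPKM + 1) the median of all genes moved to -0.21 and that of the 35 to 0.20, so the 35 lay above all genes on both scales. There limma called 4 of the 35 higher (bbs1, bbs4, bbs5 and arl13b) and 2 lower (rpgrip1l and tmem67). Over all 23235 genes it called 2583 higher and 5531 lower.

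The most significant gene was arl13b, a small GTPase of the ciliary membrane, with a change of 1.12 ± 0.21 (adjusted p = 0.00868, edgeR's quasi-likelihood test). Its level was 8.58 cRPKM in the head, 10.2, 8.53, 12.1 and 11.2 in the WT eyes, 11.5, 10.1, 10.4 and 10.1 in the mutant eyes, and 17.3 and 18.1 in the adult retinae. Both adult retinae stood above all 9 other libraries. The largest increase was that of bbs1, 1.78 ± 0.38 (adjusted p = 0.0132, same test), and bbs4 and bbs5 followed at 1.25 ± 0.34 and 0.92 ± 0.20 (adjusted p = 0.0309 and 0.0149, same test). In these 3 BBSome genes both adult values exceeded every larval value. Plain cRPKM ratios of the adult mean to the 5 dpf WT eye were 2.15 for bbs1, 1.499 for bbs4, 1.38 for bbs5 and 1.58 for arl13b.

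Among IFT-B genes ift88 changed by 0.94 ± 0.24, ift20 by 0.86 ± 0.22, ift56 by 0.84 ± 0.24 and ift52 by 0.67 ± 0.20 (adjusted p = 0.0271, 0.0242, 0.0375 and 0.0431, edgeR's quasi-likelihood test). The subunit gene ift52 stood at 16.1 cRPKM in the head, 14.95, 16.6, 14.4 and 10.9 in the WT eyes, 15.1, 16.7, 16.2 and 12.9 in the mutant eyes, and 12.2 and 15.2 in the adult retinae. In ift52 and ift56 adult replicate 2 lay within the range of the 48 to 72 hpf eyes and replicate 1 below it, and both exceeded the 5 dpf WT eye. Replicate 1 lay below the 5 dpf mutant eye, at 12.2 against 12.9 cRPKM for ift52 and 6.61 against 6.71 for ift56. The change of nphp4 was 1.03 ± 0.29, that of arl6 0.87 ± 0.26 and that of tulp1a 0.63 ± 0.18 (adjusted p = 0.0343, 0.0450 and 0.0328, same test). For tulp1a the adult levels of 28.2 and 28.7 cRPKM lay within the larval range from 60 hpf on, and for nphp4 the adult values of 1.86 and 2.77 spanned those of most larval eyes.

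The motor gene kif17 was the 1 gene called lower, by -1.98 ± 0.48 (adjusted p = 0.0213, edgeR's quasi-likelihood test). Its level was 0.17 cRPKM in the head, 0.33, 0.41, 0.34 and 0.19 in the WT eyes, 0.3, 0.47, 0.3 and 0.41 in the mutant eyes, and 0.06 and 0.04 in the adult retinae, which rests on 11 to 110 counts per library, and on log2(cRPKM + 1) the difference was -0.27. The partner motor kif3a, which drives the trains as part of heterotrimeric kinesin-2, stood at 14.4 cRPKM in the head, 28.3, 43.8, 34.9 and 30.5 in the WT eyes, 27.2, 43.8, 36.7 and 32.7 in the mutant eyes, and 26.6 and 34.5 in the adult retinae. Adult replicate 2 lay among the larval eyes and replicate 1 just below them, and the head was lowest. The lowest p of the uncalled negative changes belonged to rpgrip1l and tmem67, at -0.60 ± 0.29 and -0.44 ± 0.26, followed by bbs12 at -0.17 ± 0.31. The scaffold gene rpgrip1l stood at 2.45 cRPKM in the head, 2.48, 3.04, 1.86 and 3.05 in the WT eyes, 2.55, 3.71, 2.68 and 3.17 in the mutant eyes, and 1.24 and 1.64 in the adult retinae, and both its adult values were below every other library.

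The adult changes leaned on single libraries. The median change of the 35 was 0.60 without the 5 dpf mutant library, 0.80 without adult replicate 1 and 0.37 without adult replicate 2. The median of all genes was 0.07, 0.01 and -0.03 in these fits. With the 4 stranded libraries alone 0 of all 23416 genes were called in either direction. The 0 of 35 called there therefore says nothing about these genes. Of the 35 genes 32 were higher in adult replicate 2 than in replicate 1, with a median log2 ratio of 0.37. The same share and median over all genes were not computed. Of the 15131 genes that reached 5 cRPKM in some library, 18.1% had their highest level in replicate 2 and 8.42% in replicate 1. All genes thus leaned the same way. The part of the muscle and skin markers of replicate 1 given above was not tested.

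**Figure D5:**
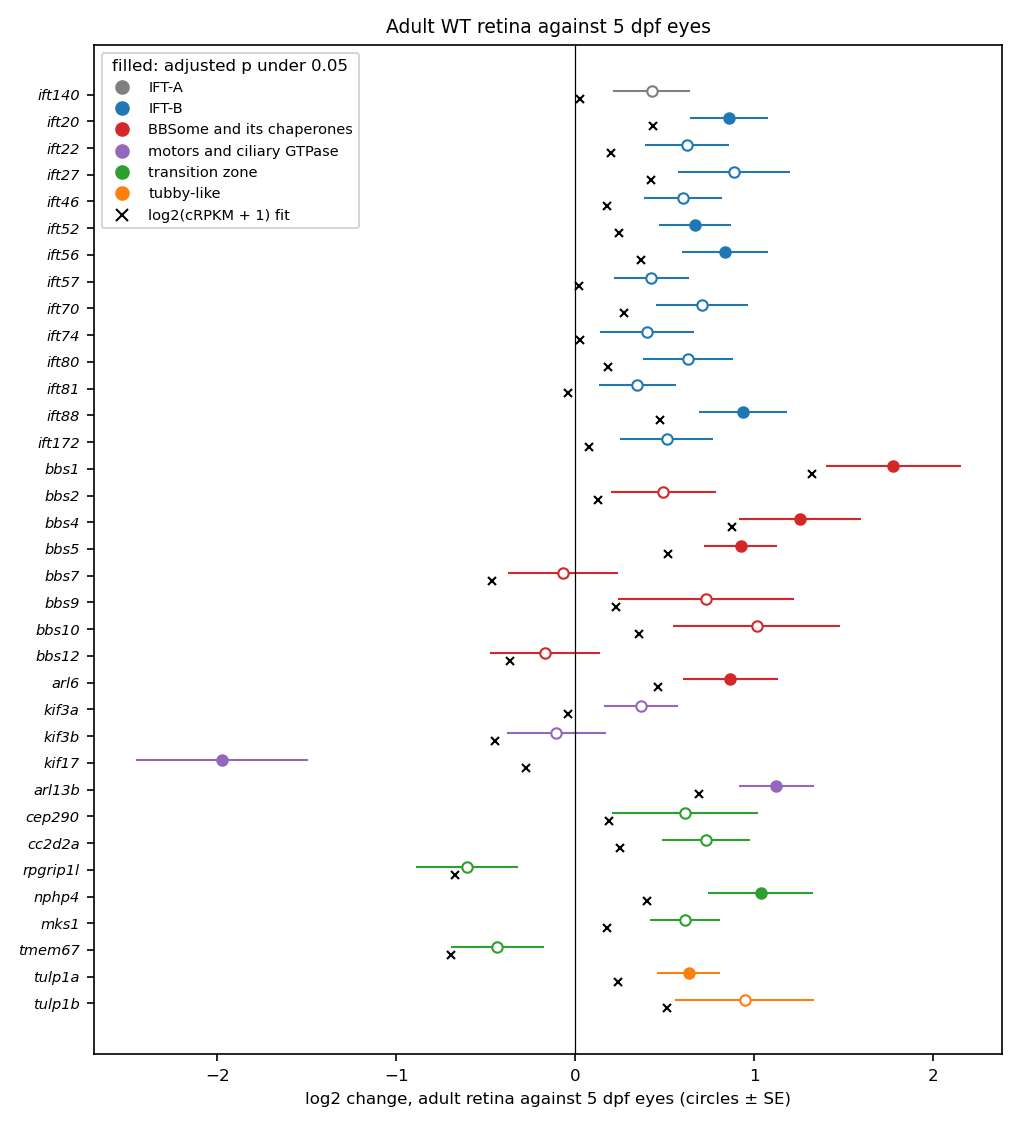
Log2 change of each of the 35 genes in adult WT retina against 5 dpf eyes, with circles (± SE) for the count fit, filled where the adjusted p was under 0.05 and coloured by role, and crosses for the fit on log2(cRPKM + 1). Most circles lie right of zero, bbs1 at 1.78 lies farthest right and kif17 at -1.98 farthest left, and the cross lies to the left of the circle for every gene except kif17.

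The 24 hpf head and the 48 hpf WT eye were set side by side without a test, and tissue and stage differ together. By the 2-fold rule 0 of 35 genes were higher in the head and 1, arl6, was lower, with a log2 ratio of -1.01, against 3.65% and 8.97% of all genes. Centred on the median of all genes arl6 no longer reached the mark. The median log2 ratio was -0.18 for the 35 genes and -0.08 for all. Of the 35 genes 27 were lower in the head, among them all 9 genes of the BBSome group and kif3a, at -0.93. Against the median of all genes, 7 of these 9 lay below and 2 above. The gene tulp1a was lower too, at -1.21. With 0.46 cRPKM in the head and 2.37 in the eye it was too low for the 2-fold rule. The small GTPase gene ift27 was higher, at 0.75.

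Other genes of the pathway were counted from lists that include 94 further measured genes. Of the BBSome subunits outside the list of 35, TTC8 rose from 48 hpf to 5 dpf by 0.94 ± 0.30 (adjusted p = 0.0393, edgeR's quasi-likelihood test), and BBIP1 from 48 to 72 hpf by 2.60 ± 0.46 (adjusted p = 0.0471, same test). At 5 dpf TTC8 stood at 21.3 cRPKM in WT and 12.4 in mutant eyes and BBIP1 at 48.6 and 36.2. From 48 hpf to 5 dpf the 4 other BBSome genes summed to 51.4, 58.4, 119.7 and 87.7 in WT eyes. In mutant eyes they summed to 50.2, 68.2, 87.5 and 71.2. The mutant sum was thus higher at 60 hpf, and lower at 72 hpf as well as at 5 dpf. At 72 hpf 5 of the 6 subunits among the 35 genes were above their WT values. From 48 hpf to 5 dpf 1 of 4 other BBSome genes rose and 0 fell, against 0 and 2 of 14 other IFT and motor genes, 4 and 2 of 24 other transition zone and basal body genes, and 4 and 1 of 13 genes of ciliary lipid cargo. In the same span 1 rose and 2 fell of 10 ciliary transcription factors, 2 and 2 of 19 motile cilia genes, and 1 and 2 of 8 genes of axoneme tubulin modification. Over all genes 19.0% were called higher and 18.2% lower in this span.

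In the adult against 5 dpf comparison 2 of 4 other BBSome genes were higher and 0 lower, with 2 and 1 of 14 other IFT and motor genes, 5 and 2 of 24 transition zone genes and 5 and 0 of 13 lipid cargo genes. There 0 of 10 transcription factors were higher and 3 lower, 3 and 7 of 19 motile cilia genes, and 2 and 1 of 8 tubulin modification genes. Over all genes 17.5% were called higher and 16.6% lower in that comparison. From 48 to 72 hpf the calls besides BBIP1 were KIF7, which fell by 1.75, and RP2, which rose by 1.61. Of all genes 1.60% were called higher and 1.62% lower in that interval. For genotype, and for genotype by age, 0 genes of any of these lists were called, against 0.00458% and 0.353% of all genes. At such low shares 0 calls say little about these lists.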

How the data were processed

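Polyadenylated RNA of 11 libraries was analysed from deposited tables that list, for 31848 Ensembl identifiers, a whole-number read count per gene, made by the authors and not normalized, and a cRPKM, an RPKM value scaled by length and depth. Per the submitters' processing notes the genome build was danRer10. The correction named by the c, the aligner and the counter were not given in the sources used here. Values were present for 29387 identifiers. No 2 libraries were identical.

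Counts were tested in R 4.3.3 with edgeR 4.0.16 (TMM, filterByExpr, robust quasi-likelihood fit), with Benjamini-Hochberg adjustment over all genes tested and a threshold of 0.05. Genotype was fitted over the 8 libraries of larval eyes within stage, with a further genotype by log2 hours term for its change with age. Age slopes are per doubling of hours, as a straight line in log2 hours through the stages with genotype as a term. The age of 5 dpf was taken as 120 hours. Eyes of 1 stage entered as independent. The adult fit had stage means and a shared genotype term over all 11 libraries, so the 5 dpf level came from both genotypes. Each SE is the log2 change divided by the root of the F statistic and is approximate. Single pairs were compared as log2 ratios of cRPKM + 1, which understates changes of low genes. Scripts were tested on simulated data.

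Alternatives were DESeq2 1.42.0, other size factors, no count filter, limma 3.58.1 on log2 cRPKM with pseudocounts of 1 and 0.1, leaving out each pair or adult replicate, WT libraries only and age in days. Values per library are given for each gene called, for the 4 with the lowest p in each direction of each comparison, and for the genes with the highest and lowest mean. Genes, roles and lists were chosen with earlier results of these data known.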

Additional observations from a re-analysis of the deposited data

How the results depend on the processing

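Depth and pooling limit these results: each larval genotype and stage is 1 library, so a call rests on how pairs of different stages differ. Mutant and WT libraries were matched by stage, which was the block of the genotype fits. No paired analysis by replicate number was possible because each larval group holds 1 library. The count of genes called lower by the genotype by age term ranged from 0 to 4 on leaving out each pair. Without the 60 hpf pair 0 of all 21771 genes were called, and without the 5 dpf pair 0 of all 21150, so these 2 fits say nothing about the 35. From 48 to 72 hpf the count higher was 9 with DESeq2, 4 with limma at either pseudocount, 0 with WT libraries only, and 1 to 18 without single pairs, with 1 to 4 lower. The counts over all genes moved with the setting as well and are given above, except for limma at a pseudocount of 0.1. That fit called 1203 higher and 408 lower of 21150. From 48 hpf to 5 dpf leaving out pairs gave 1 to 8 higher and 0 to 2 lower. WT libraries only gave 3 and 0, and age in days 5 higher. The lower count was 3 with DESeq2's size factors in edgeR, 2 without a count filter and 2 with limma at either pseudocount. It was 0 without the 5 dpf mutant library, an alternative added after seeing the data. Over all 21829 genes age in days called 3969 higher and 4042 lower, and DESeq2's size factors in edgeR 4318 and 3695. Limma called 4444 and 3501 at a pseudocount of 1, and 4320 and 3562 at 0.1. Without a count filter the counts were 4472 and 3526 of 26891. Those of the other settings named for this span are given above. For adult against 5 dpf the count higher was 7 without a count filter, 4 with limma at either pseudocount, 3 without the 5 dpf mutant library, 4 to 22 without single adult replicates and 0 with 4 stranded libraries. The count lower was 2 and 3 with limma at pseudocounts of 1 and 0.1, 0 without the 5 dpf mutant library, 1 to 3 without adult replicates and 0 with 4 stranded libraries. The fit of 4 stranded libraries called 0 of all 23416 genes, so its 0 says nothing about the 35. Over all genes the fit without a count filter called 3573 higher and 3820 lower of 27354. Limma at a pseudocount of 0.1 called 2515 and 5904 of 23235, and its counts at 1 are given above. The fits without the 5 dpf mutant library or an adult replicate keep 1 library of that stage. Their calls over all genes moved as well, but not always in step with the 35. Without adult replicate 2 fewer of the 35 were called higher, while more of all genes were. Whether the shifts in count are particular to the 35 was not tested. Centring on the median of all genes gave 1 gene 2-fold lower at 5 dpf and 0 in the head. Of the genes called or with the lowest p in a comparison, these changed sign when a pair or adult replicate was left out, with the cause not tested. The genotype difference of ift88 ranged from -0.0034 to 0.17. The genotype by age term ranged from -0.22 to 0.37 for ift20, -1.18 to 0.63 for bbs1, -1.01 to 0.14 for bbs2, -1.17 to 0.47 for bbs4, -0.11 to 0.81 for kif17 and -1.10 to 0.79 for cep290. The slope from 48 to 72 hpf of cc2d2a ranged from -2.12 to 0.42. The slope from 48 hpf to 5 dpf ranged from -1.07 to 0.15 for ift20, -0.95 to 0.19 for ift46 and -0.73 to 0.0018 for mks1. The adult change of bbs12 ranged from -0.51 to 0.052. Signs also turned for genes outside that choice, among them ift27, ift70, ift74 and rpgrip1l from 48 to 72 hpf and bbs7, bbs9 and kif3b in the adult comparison.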
